A study of Mus musculus with 6 samples.

Results

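The lysosomal hydrolases and their activators are 47 genes of the 54532 in the deposited count table, picked by symbol: soluble lysosomal proteases, glycosidases, lipases and sulfatases, with the activators that these enzymes need. All 47 were found, each on 1 row, and all 47 were among the 17340 genes tested. They were measured by bulk RNA sequencing of the retinal pigment epithelium (RPE) of 3 wild-type (WT) mice and 3 Abca4-/- (Abca4KO) mice, 1 mouse per library. The WT mice were 129S1/SvlmJ and the Abca4KO mice the Jackson line Abca4tm1Ght/J, so that line and genotype change together. All 6 mice carried Rpe65 with Leu450, lived in a 12-h light cycle on a standard diet and were sampled 5 h after light onset. The sources used here do not give their age. The comparison asks which of these transcripts differ between the genotypes, in a series whose title concerns lysosome formation and the clearance of phagocytosed material in the retina.

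Lysosomal hydrolases are made in the endoplasmic reticulum, tagged with mannose 6-phosphate in the Golgi and delivered to an acidic compartment, where they cut proteins, sugars and lipids into their building blocks. The RPE, a single layer of pigmented cells, ingests the tips of photoreceptor outer segments each day and relies on these enzymes to digest them. Abca4 encodes a transporter of retinoids in photoreceptor discs and in the RPE, and its loss is known for the build-up of bisretinoid lipofuscin in RPE lysosomes. Many hydrolase genes carry E-boxes near their start that the transcription factors of the MiT/TFE family (Tfeb, Tfe3, Mitf and Tfec) can bind.

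Of the 47 members, 41 matched a RefSeq promoter (GRCm38.p6, from 250 bases before to 50 bases after the start site), with 50 promoters in all. The E-box CACGTG was searched on both strands, as were TCACGTG, which contains it, and the M-box TCATGTG, which does not. CACGTG occurred in 13 of the 50 member promoters (26%), against 7.15% of all 32851 promoters. TCACGTG occurred in 11 (22%), against 3.77%. TCATGTG occurred in 9 (18%), against 3.77%, and in 4 (8%), against 3.25%, when only the 250 bases before the start were read. These shares describe letters in a window and say nothing about binding. The E-box windows of 8 members are shown because they include the proteases at the centre of the comparison and a few enzymes with a log2 fold change near 0. The reading strand is that of the gene, capitals mark the E-box, and each window starts at most 12 bases before it.
Ctsa (chr2:164833749-164833772, plus strand): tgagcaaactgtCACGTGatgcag
Ctsd, near site (chr7:142387908-142387937, minus strand): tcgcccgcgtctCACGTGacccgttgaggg
Ctsd, far site (chr7:142388055-142388077, minus strand): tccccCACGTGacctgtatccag
Ctsl (chr13:64370739-64370768, minus strand): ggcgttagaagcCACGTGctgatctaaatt
Dpp7 (chr2:25356388-25356417, minus strand): ccgccagactatCACGTGatgctgccccgc
Gla, near site (chrX:134601182-134601211, minus strand): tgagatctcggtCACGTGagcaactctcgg
Gla, far site (chrX:134601215-134601244, minus strand): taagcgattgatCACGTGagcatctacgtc
Glb1 (chr9:114401018-114401047, plus strand): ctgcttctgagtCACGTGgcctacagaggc
Lgmn (chr12:102439124-102439153, minus strand): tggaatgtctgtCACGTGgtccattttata
Sumf1 (chr6:108185584-108185606, minus strand): agcaccacaggtCACGTGatctc

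The E-box began 11 bases before the start in Sumf1 and 12 in Ctsa. In Glb1 and Lgmn it began 48 and 49 bases before the start, and in Dpp7 73. Ctsd held sites at 98 and 245 bases, Gla at 194 and 227, and the site of Ctsl lay 236 bases before its start. Of the sites shown, those of Ctsa, Ctsl and Lgmn and the near site of Ctsd lie inside the gene bounds of the deposited table. The gene starts there differ from the RefSeq starts used for these sites. Ctsa and Lgmn each have another RefSeq promoter that does not hold the site. The other members with a site were Arsa, Ctsf, Gaa, Naglu and Sgsh. No promoter entry was found for Aga, Asah1, Ctsb, Ctsh, Galns and Hgsnat.

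**Figure D1:**
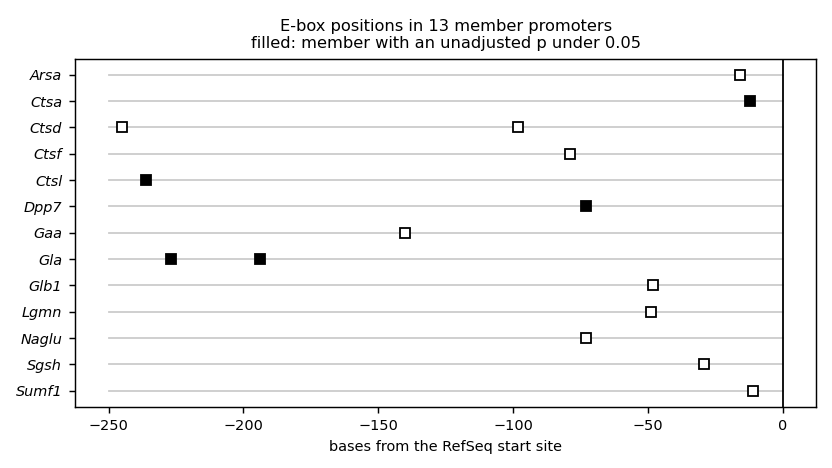
Positions of the E-box in the 13 member promoters that hold one, in bases from the RefSeq start site; each square is the first base of a site, filled where the member had an unadjusted p under 0.05. Ctsd and Gla hold 2 sites each, and the sites spread from 11 to 245 bases before the start.

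Libraries held 17047286 to 19841307 counts, and the 6 Abca4 levels fitted the labels, at 932 to 968 CPM (counts scaled to a common library size) in WT and 32.6 to 39.1 CPM in Abca4KO. A list of 15 RPE markers summed to 50450.5 to 62388 CPM in WT and 58984 to 61935 CPM in Abca4KO, with none of them absent. Libraries stood apart in other respects. WT 2 had 2467 CPM over 15 interferon response genes, against 217 to 339 CPM in the other 5, and Abca4KO 1 had 3663 CPM over 15 rod photoreceptor markers, against 742 to 1939 CPM in the others. The counts over all 47 members are also given without these 2 libraries.

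Psap was by far the most abundant member per transcript length. On the scale of CPM per kilobase of the gene length in the deposited table, Psap, the precursor of the saposins that present sphingolipids to their hydrolases, stood at 2310.1 ± 129 in WT and 2366 ± 103 in Abca4KO (SD, n = 3 each). Ctsd, the aspartic protease that is a main protease of outer segment digestion, followed at 1418 ± 135 in WT and 1657 ± 152 in Abca4KO (SD, n = 3 each). Next came the cysteine proteases Ctss, at 273 ± 141 in WT and 731 ± 259 in Abca4KO, Ctsb, at 309 ± 32.9 in WT and 417 ± 76.3 in Abca4KO, and Ctsz, at 178 ± 35.2 in WT and 229 ± 53.6 in Abca4KO (SD, n = 3 each). This order is by the mean of all 6 libraries; in WT the level of Ctsb was the higher of the pair and within the SD of Ctss.

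The next places were close together. Hexa, the alpha subunit of beta-hexosaminidase, stood at 104 ± 8.36 in WT and 135 ± 27.6 in Abca4KO CPM per kilobase (SD, n = 3 each). Npc2, which carries cholesterol out of the lysosomal lumen, stood at 104 ± 11.3 in WT and 108 ± 8.87 in Abca4KO, and Smpd1, the acid sphingomyelinase, at 98.1 ± 11.0 in WT and 107 ± 6.30 in Abca4KO CPM per kilobase (SD, n = 3 each), so that in WT these 3 did not differ beyond their spread. The median member had 31.5 CPM per kilobase over all 6 libraries. The lowest was Galc, which breaks down galactosylceramide, at 2.13 ± 0.367 in WT and 2.37 ± 0.347 in Abca4KO CPM per kilobase (SD, n = 3 each). The deposited length of Galc was 14879 bases, and by CPM it ranked 41 among the 47 genes. Psap alone made up 33.4% of the summed CPM of the 47 genes, and Psap, Ctsd and Ctsb together 63.6%. The 47 genes took 1.80%, 1.88% and 1.67% of all counts in WT 1, 2 and 3 and 1.87%, 2.19% and 2.10% in Abca4KO 1, 2 and 3, with WT 2 above Abca4KO 1.

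**Figure D2:**
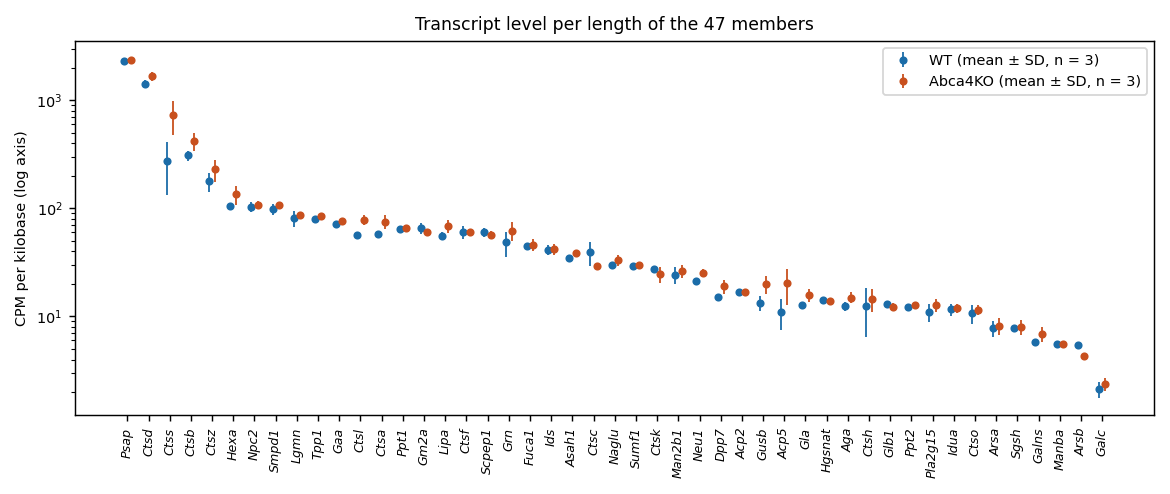
Level of the 47 members in CPM per kilobase of deposited gene length (log axis), mean and SD of 3 libraries per genotype, ordered by the mean of all 6. Psap and Ctsd lie far above the rest in both genotypes and Galc is lowest; the genotypes are close for most genes, and Ctss has the widest gap.

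Most hydrolase transcripts had a slightly higher fitted level in the Abca4KO RPE, and none passed the test. Of the 47 members, 40 (85.1%) had a positive log2 fold change (Abca4KO minus WT), against 47.8% of all tested genes. Their median was 0.12, a ratio of 1.08, against -0.01 for all tested genes, and 45 of the 47 differed by less than 1.5-fold. The members were chosen with earlier results of these data known, so their shares are not independent of the data and test nothing as a set. Of 22 lysosomal hydrolases outside the set 11 were positive and 11 negative, with a median of 0.00. In edgeR's quasi-likelihood test 0 members had an adjusted p under 0.05, against 0.0461% of all genes (8 of 17340), of which 0.0346% were higher and 0.0115% lower. In whole tissue, fewer cells of a type and less RNA per cell cannot be told apart. The smallest adjusted p of a member was 0.463, for Ctsl.

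An unadjusted p under 0.05 was found in 13 members (27.7%), against 7.02% of all genes. There were 11 members higher in Abca4KO (23.4%), against 3.15% of all genes, and 2 lower (4.26%), against 3.87%. The genotypes did not overlap, with Abca4KO above, in 11 members (23.4%), against 5.93% of all genes, and with Abca4KO below in 2 (4.26%), against 6.85%. DESeq2 called 1 of 47 members, Ctsl, against 114 of 17340 genes. The adjusted p of Ctsl in DESeq2 was 0.00334, with a range of 0.00334 to 0.981 over all settings. With limma-voom 0 members passed, against 31 of 17340 genes. DESeq2 and limma-voom had 14 and 18 members under an unadjusted p of 0.05, against 6.396% and 16.9% of all genes. Single libraries weighed on these counts. The 13 members under an unadjusted p of 0.05 became 4 without Abca4KO 2 (4.53% of all genes), 5 without WT 3 (6.59%), 6 without Abca4KO 3 (4.26%) and 7 without WT 1 (5.78%), in fits with fewer samples. They became 15 without Abca4KO 1 (7.81% of all genes) and 16 without WT 2 (10.7%). The median was 0.07 without Abca4KO 2 and without WT 3, and 0.18 without Abca4KO 1. Without WT 2 and Abca4KO 1 together, Ctss, Ctsh and Grn passed the threshold. These were 3 of 47 members, beside 190 of the 17411 genes tested in that fit. In the same fit 21 members had an unadjusted p under 0.05 (16.4% of all genes), and 40 of 47 were positive (49.7% of all genes). WT 2 had the highest member sum in WT (19264 CPM) and Abca4KO 1 the lowest in Abca4KO (18446 CPM). Leaving out this pair therefore widens the difference of the member sums by construction.

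**Figure D3:**
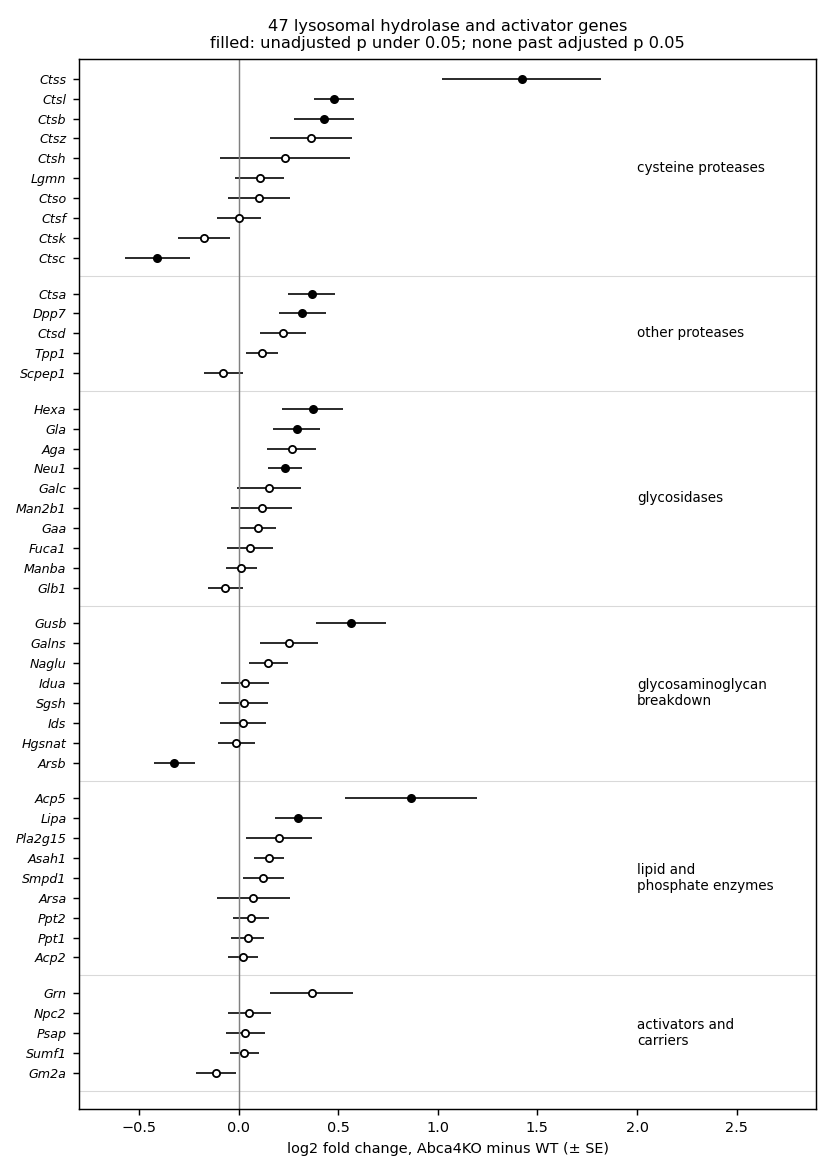
Log2 fold change (Abca4KO minus WT) of the 47 members by role, with its SE; filled points had an unadjusted p under 0.05 in edgeR's quasi-likelihood test and none passed after adjustment. Of the 47 points 40 lie to the right of 0, with Ctss farthest at 1.42.

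The cysteine proteases spanned the widest range, from Ctss at 1.42 to Ctsc at -0.41 on the log2 scale, with 8 of 10 positive and a median of 0.17. Ctsl (chromosome 13, 64359337 to 64370890 in mm10), an endopeptidase of broad action, measured 372, 341 and 381 CPM in WT 1, 2 and 3 and 449, 556 and 519.9 CPM in Abca4KO 1, 2 and 3. All Abca4KO libraries lay above all WT libraries, and the spread within each genotype was small. The means were 365 ± 20.9 CPM for WT against 509 ± 54.3 CPM for Abca4KO (SD, n = 3 each), with log2 fold change 0.48, SE 0.10, unadjusted p = 0.00184, adjusted p = 0.463. Ctsl had the smallest p of any member, and its log2 fold change stayed between 0.41 and 0.56 in all 16 settings run.

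Ctss (chromosome 3, 95526786 to 95556403), an elastolytic protease that stays active near neutral pH and is typical of antigen-presenting cells, measured 313, 585 and 214 CPM in WT and 645, 1349 and 983 CPM in Abca4KO. WT 2 came close to Abca4KO 1, and the WT libraries spread widely. The means were 370.5 ± 192 CPM for WT against 992 ± 352 CPM for Abca4KO (SD, n = 3 each), with log2 fold change 1.42, SE 0.40, unadjusted p = 0.00845, adjusted p = 0.616. Ctsb (chromosome 14, 63122462 to 63145923), an endopeptidase and exopeptidase, measured 1941, 2027 and 1648 CPM in WT and 2098, 3014 and 2456 CPM in Abca4KO. The genotypes did not overlap, although Abca4KO 1 was only slightly above WT 2 (log2 fold change 0.43, SE 0.15, unadjusted p = 0.0235, adjusted p = 0.670). Its exons overlap those of Fdft1, a gene on the other strand with 10848 counts over the 6 libraries against 247145 for Ctsb, which leaves the Ctsb count uncertain.

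Ctsc (chromosome 7, 88278085 to 88310888), the dipeptidyl peptidase that activates granule serine proteases, had a negative fold change, at 199, 294 and 190.2 CPM in WT and 173, 173 and 169 CPM in Abca4KO. The 3 Abca4KO libraries were nearly equal and all below WT, and WT 2 stood well above the other WT libraries (log2 fold change -0.41, SE 0.16, unadjusted p = 0.0397, adjusted p = 0.701). Without WT 2 its log2 fold change was -0.18. WT 2 is the library with the high interferon genes. It also had the highest sum of 10 lymphocyte markers, at 88.3 CPM against 11.3 to 40.7 CPM in the others. The part of either in the Ctsc value was not tested. Ctsz, a carboxypeptidase, measured 257, 307 and 205 CPM in WT and 243, 389.6 and 358 CPM in Abca4KO, with overlap between the genotypes (log2 fold change 0.36, SE 0.21, unadjusted p = 0.118, adjusted p = 0.771). Its log2 fold change was 0.23 without WT 3 and 0.23 without Abca4KO 2. Ctsh, an aminopeptidase, had a log2 fold change of 0.23 and an SE of 0.33, and its highest library was WT 2 at 86.5 CPM. Its log2 fold change ranged from -0.17 to 0.84 over all 16 settings. With 1 library left out it ranged from 0.015 without WT 3 to 0.70 without WT 2. Leaving out WT 1 gave 0.09, leaving out Abca4KO 2 0.05 and leaving out Abca4KO 1 0.39 on the log2 scale. Ctsk, known for collagen breakdown in bone, had one of -0.17, and Ctso, Ctsf and the asparaginyl endopeptidase Lgmn lay between 0.00 and 0.11.

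Among the other proteases and peptidases 4 of 5 were positive, with a median of 0.22 on the log2 scale. Ctsa (chromosome 2, 164832873 to 164841032), the carboxypeptidase that also shields the sialidase Neu1 and the galactosidase Glb1 from breakdown, measured 285, 284 and 256 CPM in WT and 300.3, 402 and 361 CPM in Abca4KO. Every Abca4KO library was above every WT library (log2 fold change 0.37, SE 0.12, unadjusted p = 0.0157, adjusted p = 0.625). Exons of Ctsa overlap those of Pltp on the opposite strand, a gene with 133677 counts over the 6 libraries against 35361 for Ctsa, so the count of Ctsa is uncertain.

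Both partners of Ctsa are members. Neu1, which removes sialic acids, measured 80.5, 77.7 and 81.2 CPM in WT and 84.6, 97.7 and 99.1 CPM in Abca4KO. The WT libraries were almost identical and the Abca4KO libraries all higher (log2 fold change 0.23, SE 0.09, unadjusted p = 0.0285, adjusted p = 0.691). Glb1, the lysosomal beta-galactosidase, had a log2 fold change of -0.07 (SE 0.09).

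Dpp7, a dipeptidyl peptidase, measured 52.2, 52.8 and 47.6 CPM in WT and 55.3, 73.6 and 61.5 CPM in Abca4KO. Its genotypes did not overlap, with Abca4KO 2 highest (log2 fold change 0.32, SE 0.12, unadjusted p = 0.0289, adjusted p = 0.691). Ctsd measured 3426, 3594 and 2980.1 CPM in WT and 3505, 4204 and 3976 CPM in Abca4KO. Abca4KO 1 lay among the WT libraries, so the genotypes overlapped (log2 fold change 0.22, SE 0.12, unadjusted p = 0.0904, adjusted p = 0.759). Tpp1, the tripeptidyl peptidase lost in a childhood neuronal ceroid lipofuscinosis, had a log2 fold change of 0.12 (SE 0.08), and the carboxypeptidase Scpep1 one of -0.08 (SE 0.10).

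**Figure D4:**
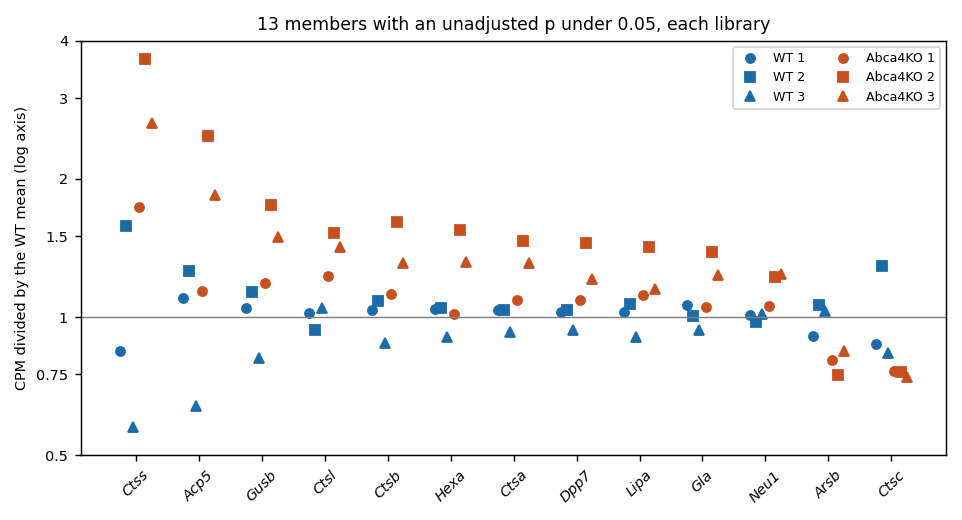
CPM of the 13 members with an unadjusted p under 0.05, each library divided by the WT mean of its gene (log axis). In Ctsl, Gusb and Ctsa the 3 Abca4KO libraries lie above all WT libraries; Abca4KO 2 is the highest in 10 of the 11 members to the left, and Arsb and Ctsc lie below WT.

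Of the 10 enzymes that trim glycoproteins and glycolipids 9 were positive (47.8% of all genes), with a median of 0.13 on the log2 scale. An unadjusted p under 0.05 was found in 3 of them, against 7.02% of all genes. Besides Neu1 these were Hexa and Gla. Hexa measured 217, 218 and 188 CPM in WT and 211, 321 and 274 CPM in Abca4KO. Abca4KO 1 lay within the WT range and the other 2 Abca4KO libraries above it (log2 fold change 0.37, SE 0.15, unadjusted p = 0.0427, adjusted p = 0.706). Without Abca4KO 2 its log2 fold change was 0.23. Gla, the alpha-galactosidase missing in Fabry disease, measured 44.6, 42.1 and 39.3 CPM in WT and 44.2, 58.3 and 51.9 CPM in Abca4KO. WT 1 and Abca4KO 1 were nearly equal (log2 fold change 0.29, SE 0.12, unadjusted p = 0.0400, adjusted p = 0.701).

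Aga, which splits the bond between asparagine and sugar, measured 30.9, 25.5 and 30.3 CPM in WT and 33.0, 39.3 and 32.0 CPM in Abca4KO. The genotypes did not overlap by a narrow margin (log2 fold change 0.27, SE 0.12, unadjusted p = 0.0672, adjusted p = 0.725). The remaining glycosidases were the glycogen enzyme Gaa at 0.10, Galc at 0.15, the mannosidases Man2b1 at 0.12 and Manba at 0.01, and the fucosidase Fuca1 at 0.06 on the log2 scale. None of these had an unadjusted p under 0.05.

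The 8 enzymes of glycosaminoglycan breakdown were split. Gusb (chromosome 5, 129989011 to 130003049), the beta-glucuronidase that acts on several of these chains, measured 63.8, 69.2 and 49.6 CPM in WT and 72.2, 107 and 91.1 CPM in Abca4KO. All Abca4KO libraries were above all WT libraries, by little in the case of Abca4KO 1 and WT 2 (log2 fold change 0.56, SE 0.17, unadjusted p = 0.0131, adjusted p = 0.616). Arsb (chromosome 13, 93771630 to 93943016), the sulfatase of dermatan and chondroitin sulfate, measured 29.7, 34.7 and 33.8 CPM in WT and 26.4, 24.6 and 27.7 CPM in Abca4KO. Its Abca4KO libraries were all below WT, and the log2 fold change was negative in all 16 settings (log2 fold change -0.32, SE 0.10, unadjusted p = 0.0170, adjusted p = 0.625).

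Galns, a sulfatase of keratan and chondroitin sulfate, measured 15.5, 15.7 and 15.1 CPM in WT and 16.0, 21.7 and 17.4 CPM in Abca4KO, without overlap (log2 fold change 0.25, SE 0.15, unadjusted p = 0.123, adjusted p = 0.775). It is the least abundant member on the CPM scale. Among the heparan sulfate enzymes, log2 fold changes were near 0, with Naglu at 0.15, Sgsh at 0.03, Ids at 0.02, Idua at 0.03 and Hgsnat at -0.01 on the log2 scale and SEs of 0.09 to 0.12. Hgsnat is an acetyltransferase of the lysosomal membrane rather than a soluble enzyme.

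All 9 lipid and phosphate enzymes were positive, with a median of 0.12 on the log2 scale. Acp5 (chromosome 9, 22126727 to 22135711), the tartrate-resistant acid phosphatase of osteoclasts and macrophages, measured 24.7, 28.4 and 14.4 CPM in WT and 25.7, 55.9 and 41.5 CPM in Abca4KO. The spread was wide and WT 2 lay above Abca4KO 1 (log2 fold change 0.87, SE 0.33, unadjusted p = 0.0326, adjusted p = 0.691). Lipa (chromosome 19, 34492318 to 34527474), which hydrolyses cholesteryl esters and triglycerides, measured 168, 176 and 149 CPM in WT and 183, 234 and 189 CPM in Abca4KO. Its genotypes did not overlap (log2 fold change 0.30, SE 0.12, unadjusted p = 0.0348, adjusted p = 0.701).

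Asah1, the acid ceramidase, measured 117, 124 and 112 CPM in WT and 126, 135 and 132 CPM in Abca4KO. The margin between the genotypes was narrow but free of overlap (log2 fold change 0.15, SE 0.07, unadjusted p = 0.0791, adjusted p = 0.738). Smpd1 measured 345, 285 and 352 CPM in WT and 339, 351 and 379.7 CPM in Abca4KO, with overlap (log2 fold change 0.12, SE 0.10, unadjusted p = 0.267, adjusted p = 0.856). The phospholipase Pla2g15 had a log2 fold change of 0.20, the sulfatide enzyme Arsa one of 0.07, the thioesterases Ppt1 and Ppt2 0.05 and 0.06, and the acid phosphatase Acp2 0.02.

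The 5 activators and carriers had 0 members with an unadjusted p under 0.05 and a median of 0.03 on the log2 scale. Psap measured 6378, 6672 and 5967 CPM in WT and 6166, 6683 and 6625 CPM in Abca4KO. Its libraries were interleaved between the genotypes (log2 fold change 0.03, SE 0.10, unadjusted p = 0.733, adjusted p = 0.966). Npc2 measured 547, 632 and 512 CPM in WT and 530.1, 622 and 602 CPM in Abca4KO, again interleaved (log2 fold change 0.05, SE 0.11, unadjusted p = 0.638, adjusted p = 0.948). Gm2a, which lifts the ganglioside GM2 out of the membrane for hexosaminidase, measured 258, 307 and 249.6 CPM in WT and 236, 263 and 256 CPM in Abca4KO (log2 fold change -0.11, SE 0.10, unadjusted p = 0.299, adjusted p = 0.862).

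Gm2a and Hexa, which serve the same reaction, thus had fold changes of opposite sign, and the difference between the genes was not tested. Grn, the progranulin gene, measured 154, 217 and 133 CPM in WT and 173, 255 and 222 CPM in Abca4KO, with WT 2 above Abca4KO 1 (log2 fold change 0.37, SE 0.21, unadjusted p = 0.120, adjusted p = 0.773). The log2 fold change of Grn was 0.60 without WT 2, 0.23 without WT 3 and 0.24 without Abca4KO 2. Other members also share exon bases with another gene, so that their counts are less certain. These include Ppt1 with Cap1 (26164 counts over the 6 libraries against 26989 for Ppt1), Acp2 with Ddb2 (1692 against 9813), Hexa with Tmem202 (467 against 26759) and, on the same strand, Glb1 with Tmppe (791 against 4278). The largest overlaps by share of exon bases were with partners of 0 or 1 counts. On the same strand they were Ppt2 with Gm20460 (36.6%) and Ctsd with Gm49369 (34.4%). On the opposite strand they were Arsb with Gm26527 (32.3%) and Ctsl with Gm47123 (26.8%). The effect of these overlaps on the counts was not tested. Sumf1, which activates sulfatases in the endoplasmic reticulum, had a log2 fold change of 0.03 (SE 0.07).

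The highest and lowest values of the members gathered in a few libraries. Abca4KO 2 held the highest value of 26 members (17.4% of all tested genes had their highest there), and WT 3 the lowest of 24 (20.2% of all genes). Both at once held for 18 members, against 5.26% of all genes. Among them were Ctsb, Ctsd, Ctss, Hexa, Psap and Grn. Ctsl was different, with its lowest value in WT 2. WT 3 and Abca4KO 2 were then left out together because they held these extremes, a choice that by itself makes the difference smaller, so the values describe the other 4 libraries and test nothing. Of the 47 members 29 were positive (48.7% of all genes) with a median of 0.05, and 3 had an unadjusted p under 0.05 (5.34% of all genes). Ctsl then had a log2 fold change of 0.45 and Ctss one of 0.87. Variation within a genotype ranged from a coefficient of 1.23% for Ctsk in WT to 51.8% for Ctss in WT, with medians of 8.47% in WT and 11.2% in Abca4KO.

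Macrophage markers shared the highest and lowest library of that pattern by their sum. The 24 markers (none at 0 in any library, members left out) summed to 3335, 4709 and 2445 CPM in WT and 3818, 6576 and 5092 CPM in Abca4KO, highest in Abca4KO 2 and lowest in WT 3. By the mean of their log2 CPM, in which each marker counts equally, WT 2 was highest at 5.79 and Abca4KO 2 next at 5.73. The median log2 fold change of the 24 was 0.26, and 17 were positive. Lyz2, the lysozyme of myeloid cells, measured 1660.5, 2002 and 1179 CPM in WT and 2109.9, 3937 and 2957 CPM in Abca4KO, and Cd68, a lysosomal membrane protein of macrophages, 89.1, 124 and 71.2 and 137, 232 and 176 CPM. Both were without overlap between the genotypes.

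Other defining markers of macrophages gave a different picture. Csf1r, the receptor for macrophage colony-stimulating factor, measured 594, 567 and 579.8 CPM in WT and 526, 525 and 551 CPM in Abca4KO, lower in every Abca4KO library (adjusted p = 0.786 in edgeR's test). C1qa, a complement component of macrophages and microglia, was highest in WT 2, at 44.6, 123 and 30.2 CPM in WT and 43.6, 97.4 and 66.8 CPM in Abca4KO. The part of macrophage RNA in the values of Ctss, Acp5, Gusb and the other members was not tested.

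Among further cell types, the fibroblast marker sum shared its highest and lowest library with the macrophage sum, and the other sums did not. The 15 endothelial markers summed to 617, 838 and 508 CPM in WT and 825, 857 and 1230.0 CPM in Abca4KO, highest in Abca4KO 3, and all 15 were positive with a median of 0.59. The 12 fibroblast markers summed to 1964, 1936 and 1681 CPM in WT and 2001, 2444 and 2086 CPM in Abca4KO. By the mean of their log2 CPM, Abca4KO 2 was also highest at 6.59 and WT 3 lowest at 6.09. The 8 melanocyte markers, which pigmented RPE also expresses in part, summed to 3814, 2912 and 4261 CPM in WT. In Abca4KO they summed to 4112, 5004 and 4888 CPM, and 5 of the 8 were positive. Their sum was lowest in WT 2 and highest in Abca4KO 2, the libraries in which Ctsl also had its extremes. The 10 lymphocyte markers summed to 20.1, 88.3 and 11.3 CPM in WT and 16.3, 40.7 and 29.4 CPM in Abca4KO. Rod markers were highest in Abca4KO 1, the Abca4KO library with the lowest hydrolase sum, at 17801 CPM over the 46 members other than Ctss. That sum was 17702, 18680 and 16246 CPM in WT 1, 2 and 3 and 21077 and 19793 CPM in Abca4KO 2 and 3. The part of these cell types in the member values was not tested.

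**Figure D5:**
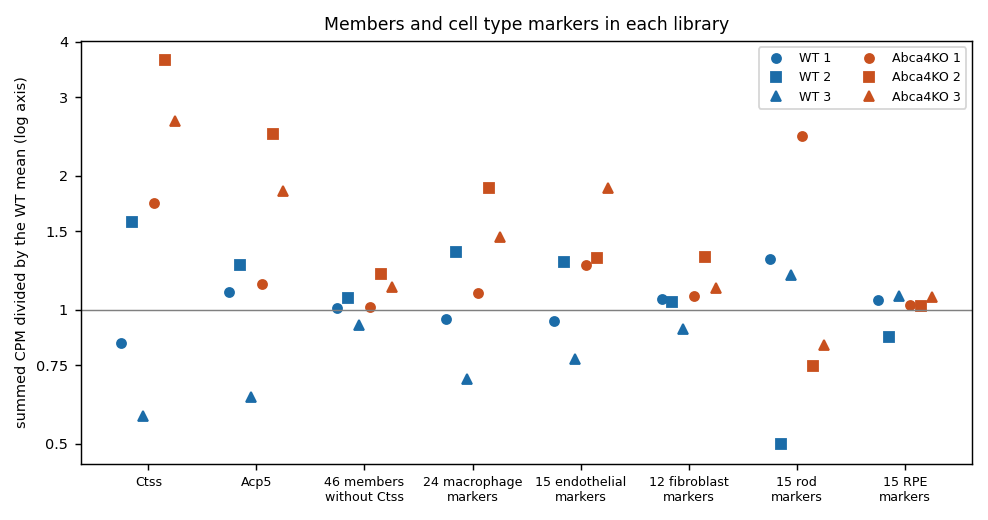
Summed CPM of Ctss, Acp5, the 46 members other than Ctss and 5 cell type marker lists in each library, divided by the WT mean (log axis). The macrophage and fibroblast markers, Ctss, Acp5 and the 46 members share Abca4KO 2 as the highest and WT 3 as the lowest library. Rod markers peak in Abca4KO 1 and RPE markers lie close together.

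Other genes of the pathway were read from lists of hydrolases, inhibitors, sorting factors and membrane proteins, and 0 of them passed the threshold, against the same 0.0461% of all genes. Of 22 hydrolases outside the set 11 were positive (47.8% of all genes), with a median of 0.00 on the log2 scale. An unadjusted p under 0.05 was found in 3 of them, all higher, against 3.15% of all genes. Pld3, a lysosomal nuclease, measured 230.0, 218 and 192 CPM in WT and 255, 377 and 355 CPM in Abca4KO (log2 fold change 0.63, SE 0.15, unadjusted p = 0.00431, adjusted p = 0.546).

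Of 5 tested inhibitors of the cathepsins 2 were positive, with a median of -0.16. Cst3, the secreted inhibitor cystatin C of the cysteine proteases, measured 5087, 4926 and 5153 CPM in WT and 5169, 5322 and 5872 CPM in Abca4KO (log2 fold change 0.11, SE 0.09, unadjusted p = 0.284, adjusted p = 0.860). Of 15 genes for mannose 6-phosphate tagging and sorting 9 were positive (47.8% of all genes), with a median of 0.05. The adaptor Gga3 was the 1 gene with an unadjusted p under 0.05, against 7.02% of all genes (log2 fold change 0.30, adjusted p = 0.679 in edgeR's test). Of 21 lysosomal membrane genes 18 were positive (47.8% of all genes), with a median of 0.06. Lamp1, the main glycoprotein of the lysosomal membrane, measured 378, 392 and 388 CPM in WT and 422, 567 and 512 CPM in Abca4KO (log2 fold change 0.37, SE 0.11, unadjusted p = 0.0126, adjusted p = 0.616). It was again highest in Abca4KO 2.

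Acidification of the lysosome is the work of the V-ATPase, and of its 19 tested subunits 17 were positive (47.8% of all genes), with a median of 0.12 on the log2 scale. Of these subunits 3 had an unadjusted p under 0.05, all higher, against 3.15% of all genes. Of the 4 MiT/TFE factors 3 were positive, and 0 had an unadjusted p under 0.05. Tfeb measured 27.2, 32.0 and 24.7 CPM in WT and 27.0, 31.2 and 30.9 CPM in Abca4KO, with overlap (log2 fold change 0.09, SE 0.13, unadjusted p = 0.520, adjusted p = 0.925). Mitf, the family member with the most counts here and a regulator of pigment cells, had a log2 fold change of -0.13 (adjusted p = 0.801 in edgeR's test), and Tfe3 one of 0.15. Transcript levels do not report where these proteins are in the cell.

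The members were also read by their promoter, without a test. The 13 with CACGTG had a median log2 fold change of 0.11, with 12 positive, and the 28 with a promoter but no such site had a median of 0.08, with 23 positive. Of the 12 members that had a promoter entry and an unadjusted p under 0.05, 4 held the site, as shown above for Ctsa, Ctsl, Dpp7 and Gla, and so did 9 of the other 29. Ctss, with the highest fold change, held none in its window, nor did Gusb, Acp5, Hexa, Neu1 and Lipa.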

How the data were processed

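The authors deposited a table of unnormalized whole read counts, with the length, position and symbol of each gene. The submitters' processing notes name STAR, HTSeq and mm10 and give no versions. Annotation release and strand use are not given in the sources used here, so overlapping genes on opposite strands cannot be told apart. Libraries were made with a NEBNext kit, per the labels' protocols.

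Genes were kept by filterByExpr (minimum count 10) in edgeR 4.0.16 (R 4.3.3), scaled by TMM and compared in a 2-sided quasi-likelihood fit of the 6 libraries, with Benjamini-Hochberg adjustment over 17340 genes and a threshold of 0.05. Each SE was obtained from the fold change and the F statistic. CPM uses TMM-scaled library sizes. The lowest raw count of a member in a library was 264, and 3 counts equalled 0.152 to 0.174 CPM. These floors cover counting error only. All library pairs differed beyond counting noise (chi-square per degree of freedom at least 12.6). The script was tested on simulated data. Other settings used limma 3.58.1 and DESeq2 1.42.0. Shared exons and similar transcripts were searched in GENCODE M21, in which 46 of the 47 members have the deposited coordinates.

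Members and lists were chosen with earlier results of these data known. By rule, values in every library are given for the 3 members of each role with the smallest p, the 8 most abundant per length and those whose genotypes do not overlap. Pld3, Cst3, Gga3, Lamp1, Lyz2, Mitf and Tfe3 were among the 3 smallest p-values of their lists, and Abca4, Tfeb, Cd68, Csf1r and C1qa were always named. A further gene that the rule names is not reported here.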

Additional observations from a re-analysis of the deposited data

How the results depend on the processing

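The number of members past the threshold was 0 in edgeR with other size factors, other filters or the replicate block, in limma-voom and when any 1 library was left out. It was 1 in DESeq2 (Ctsl) and 3 without WT 2 and Abca4KO 1 together. All genes past the threshold numbered 114 in DESeq2, 31 in limma-voom, 19 without a filter, 3 to 11 with 1 library left out, 190 without WT 2 and Abca4KO 1, and 3 without WT 3 and Abca4KO 2, a pair chosen after seeing the data for its extreme values, which makes the difference smaller by construction. Positive members numbered 29 to 40 in all settings. Their median was 0.065 to 0.18 with 1 library left out, 0.21 without WT 2 and Abca4KO 1 and 0.048 without WT 3 and Abca4KO 2. Leaving out WT 2 and Abca4KO 1 widens the difference of the member sums by construction. Members with an unadjusted p under 0.05 numbered 4 to 16, 21 and 3 in these fits, against 4.26% to 10.7%, 16.4% and 5.34% of all genes. Members whose genotypes do not overlap numbered 13 to 23, 31 and 20. Fewer libraries raise this share for all genes as well. With 6 libraries Abca4KO lay above in 5.93% and below in 6.85% of all genes. With 1 library left out these shares were 9.32% to 13.96% and 10.5% to 14.0%. They were 23.95% and 24.26% without WT 2 and Abca4KO 1, and 17.2% and 17.2% without WT 3 and Abca4KO 2. The causes of the other changes were not tested. With DESeq2 the log2 fold change of Ctsl was 0.48. Without WT 2 and Abca4KO 1 it was 2.13 for Ctss (adjusted p = 0.00935), 0.84 for Ctsh (0.0417) and 0.72 for Grn (0.0389) in edgeR's test; over all settings the adjusted p ranged from 0.00935 to 0.981, 0.0417 to 1.000 and 0.0389 to 0.981.

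Replicate numbers are shared between the genotypes, but same-numbered libraries had correlations of their deviations of 0.17, 0.34 and -0.08, and WT 3 correlated best with Abca4KO 1. With 3 libraries per genotype these correlations cannot decide whether the numbers pair the samples, and the main fit does not use the numbers. With the replicate block 9 genes and 0 members passed, and 13 members had an unadjusted p under 0.05, of which 12 were also among the 13 without the block. Among the 8 most abundant members per length, 5 stayed there on the CPM scale.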
